A study of Homo sapiens with 2 samples.

Results

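Calcineurin, its feedback inhibitor and the calmodulin-dependent kinases were compared between PC3 cells given fluphenazine and PC3 cells given the solvent DMSO. The members were 9 genes taken by name, namely CALM2, CALM3, CAMKK2, CAMK2D, CAMK2G, PPP3CA, PPP3CB, PPP3R1 and RCAN1, and every probe set that the platform annotation assigns to one of them was used. The table holds 23 such probe sets for 7 of the 9 genes, out of 47693 probe sets and 18392 named genes in all. The annotation used here assigned no probe set to CALM2 or CALM3, and none of its 1668 probe sets with several gene names carried a calmodulin gene or another member. CALM2 and CALM3, and with them calmodulin itself, are therefore not analysed here, and the values below describe calcineurin, its inhibitor and the kinases.

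The 2 arrays held total RNA of PC3, a human prostate cancer line derived from a metastasis in bone and grown in medium with fetal bovine serum. One array was of cells given DMSO and the other of cells given 10 µM fluphenazine, for a time that the sources used here do not give. With 1 array per treatment no value has an error between cultures, no test across samples was possible, and each difference is between these 2 arrays. RNA of a whole culture cannot tell fewer cells that make a transcript from less transcript per cell.

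Calmodulin is a small calcium sensor that, once loaded with calcium, wraps around target enzymes and switches them on. Calcineurin, the phosphatase among these targets, removes phosphate from NFAT transcription factors and so lets them enter the nucleus, whereas the calmodulin-dependent kinases pass the signal on by phosphorylation. Phenothiazines such as fluphenazine are known to bind calcium-loaded calmodulin and to block its action on such targets.

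RCAN1 encodes a protein that binds calcineurin and restrains it, and an internal start site of the gene is known to be switched on by calcineurin through NFAT, which makes RCAN1 a customary readout of the pathway. Of the 7 genes it is the one whose chosen probe set differed by over 1.2-fold, so its start regions are shown. RefSeq sequences on GRCh38.p14 gave 6 windows for RCAN1, each of 300 bases from 250 bases before a start to 50 after it, all on the minus strand. Printed below are the window furthest upstream, at chr21:34615064-34615363, and the window with most matches to the NFAT core, at chr21:34526773-34527072, which lies 88291 bases downstream of it. Capitals mark GGAAA, the core of NFAT sites, TGACGTCA, the cAMP response element, and TGACTCA, an AP-1 site, each searched on both strands, so that TTTCC is GGAAA read on the other strand.
RCAN1 upstream window: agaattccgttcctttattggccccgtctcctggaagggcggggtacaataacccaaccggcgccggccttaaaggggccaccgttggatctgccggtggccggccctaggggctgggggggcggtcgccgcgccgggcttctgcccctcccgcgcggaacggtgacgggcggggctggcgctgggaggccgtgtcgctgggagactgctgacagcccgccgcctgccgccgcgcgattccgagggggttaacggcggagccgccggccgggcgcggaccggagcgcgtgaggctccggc
RCAN1 internal window: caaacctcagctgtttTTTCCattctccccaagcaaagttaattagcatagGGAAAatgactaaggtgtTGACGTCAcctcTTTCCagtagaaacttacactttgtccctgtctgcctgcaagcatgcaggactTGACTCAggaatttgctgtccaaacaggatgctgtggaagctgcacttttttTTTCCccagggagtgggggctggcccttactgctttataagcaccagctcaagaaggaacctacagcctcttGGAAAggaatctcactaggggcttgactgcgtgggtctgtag
The internal window held 5 matches to GGAAA, at bases 17, 52, 82, 187 and 259 counted from 1 at its 5′ end. It also held 1 TGACGTCA at base 70 and 1 TGACTCA at base 135, and no matches overlapped one another. The upstream window held none of the 3 motifs. Over 35116 RefSeq windows of the same length, 61.2% held at least 1 GGAAA and 0.740% held 5 or more, while 1.85% held TGACGTCA and 4.95% held TGACTCA. The internal window was chosen as the best of 6, and among the 57 genes with 6 windows the best window held 5 or more GGAAA in 5.26%. Of the other 4 RCAN1 windows, those nearest the upstream one had no GGAAA and those downstream of the internal one had 1 each. CAMKK2 and PPP3R1 had 1 GGAAA each in their windows, and CAMK2D and CAMK2G had none. The sequences used here held windows for 5 member genes and none for PPP3CA or PPP3CB. These matches describe letters in the reference, and the sources used here do not say which start the RCAN1 probe sets read.

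The 3 probe sets of RCAN1 did not point the same way. The probe set 208370_s_at gave a log2 signal of 8.98 with DMSO and 9.26 with fluphenazine, a difference of 0.28 or 1.21-fold. Of all probe sets above the expression floor, 8.77% differed by as much or more in either direction. The floor was a log2 signal of 6.19, the median over all genes of the higher of their 2 values, and is a rank rather than a detection call. Both other probe sets lay under it. The probe set 215253_s_at was also higher with fluphenazine, at 4.92 with DMSO against 5.08. The probe set 215254_at was lower, at 3.66 against 3.42. The mean difference of the 3 was 0.068, so the size of the RCAN1 difference rests on 208370_s_at.

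**Figure D1:**
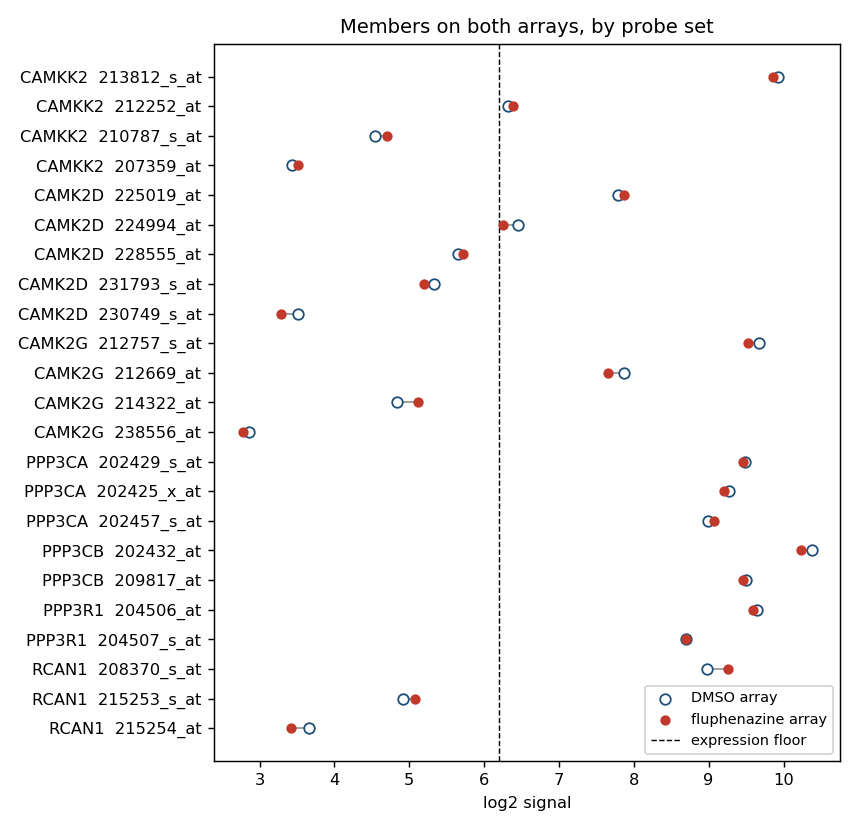
Log2 signal (horizontal axis) of each of the 23 member probe sets, 1 row each, with DMSO (open circles) and with fluphenazine (filled circles), with the floor of 6.19 dashed. Within a row the circles lie close together for most probe sets, and the RCAN1 probe set 208370_s_at moves from 8.98 to 9.26; levels in different rows are not comparable, since each probe set binds with its own strength.

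The calcineurin subunits differed little. PPP3CA, which encodes the alpha form of the catalytic subunit, had 3 probe sets, all above the floor, with log2 signals of 9.49, 9.27 and 8.99 with DMSO and 9.45, 9.21 and 9.07 with fluphenazine. Their differences of -0.036, -0.065 and 0.081 fell on both sides of 0. PPP3CB, the beta form of the same subunit, was lower with fluphenazine at both of its probe sets. They read 10.38 and 9.50 with DMSO against 10.24 and 9.46 with fluphenazine, differences of -0.14 and -0.046. PPP3R1, the calcium-binding regulatory subunit that calcineurin needs for activity, gave 9.65 and 8.69 with DMSO against 9.60 and 8.70, differences of -0.053 and 0.0048. No probe set of the 3 subunit genes reached 1.2-fold, and the largest difference, that of PPP3CB, was 1.11-fold.

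Among the kinases, CAMK2G was lower at both probe sets above the floor. This gene encodes the gamma form of calmodulin kinase II, a multi-subunit kinase that can stay active after the calcium signal has ended. The 2 probe sets read 9.67 and 7.86 with DMSO against 9.52 and 7.65 with fluphenazine, so they were lower by 1.11-fold and 1.16-fold. Under the floor the gene's probe set 214322_at went the other way, at 4.83 against 5.11, a difference of 0.28, and 238556_at read 2.86 against 2.77.

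CAMK2D, the delta form of the same kinase, had 5 probe sets that disagreed in sign. Above the floor, 225019_at was slightly higher with fluphenazine (7.79 with DMSO against 7.87) and 224994_at was lower (6.45 against 6.26), differences of 0.076 and -0.20. The 3 probe sets under the floor differed by 0.068, -0.13 and -0.23. The mean over all 5 was -0.083, opposite in sign to the probe set with the highest signal.

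CAMKK2 encodes the kinase that activates other calmodulin kinases and the energy sensor AMPK, and is known as an androgen receptor target in prostate cancer. Its probe set 213812_s_at read 9.93 with DMSO and 9.86 with fluphenazine, and 212252_at read 6.31 against 6.38, differences of -0.070 and 0.067. The remaining 2 probe sets, under the floor, differed by 0.17 and 0.086. Here too the sign depended on the probe set, with a mean of 0.063 over all 4.

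**Figure D2:**
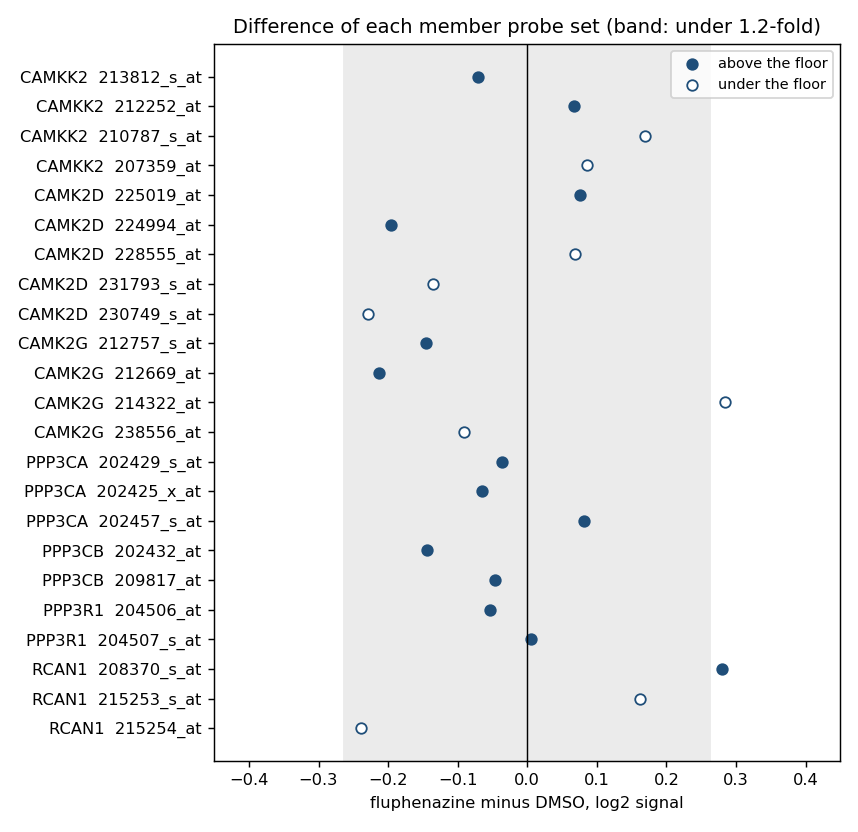
Difference in log2 signal, fluphenazine minus DMSO (horizontal axis), for the same 23 probe sets, filled above the floor and open under it; the grey band spans differences under 1.2-fold. Of the probe sets above the floor 1 lies outside the band, RCAN1 208370_s_at at 0.28, and under the floor CAMK2G 214322_at lies at 0.28.

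Of the 23 probe sets 14 were above the floor. Among these, 1 was past 1.2-fold higher with fluphenazine (RCAN1) and 0 were past 1.2-fold lower, which is 7.14% of them, while 10.3% of all 16406 probe sets above the floor were past 1.2-fold in either direction, 4.97% higher and 5.38% lower. The members' share thus lay near the background, and no member reached 1.5-fold, which 0.628% of all probe sets did. Differences ran from -0.21 to 0.28, with 5 probe sets higher and 9 lower by any amount. Their median was -0.050, against -0.0100 over all probe sets above the floor, of which 52.6% were lower. The median size of difference was 0.073 in the members and 0.100 in all probe sets. Of the 9 under the floor, 5 were higher and 4 lower, from -0.24 to 0.28, and 1 of them was past 1.2-fold. The share over all probe sets under the floor was not worked out.

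As a scale for these values, probe sets of one gene differed among themselves by a pooled SD of 0.13, over the 3668 genes that had 2 or more above the floor. This holds noise within the arrays and not the variation between cultures. Between its probe sets above the floor, CAMK2D spanned 0.27, PPP3CA 0.15 and CAMKK2 0.14.

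**Figure D3:**
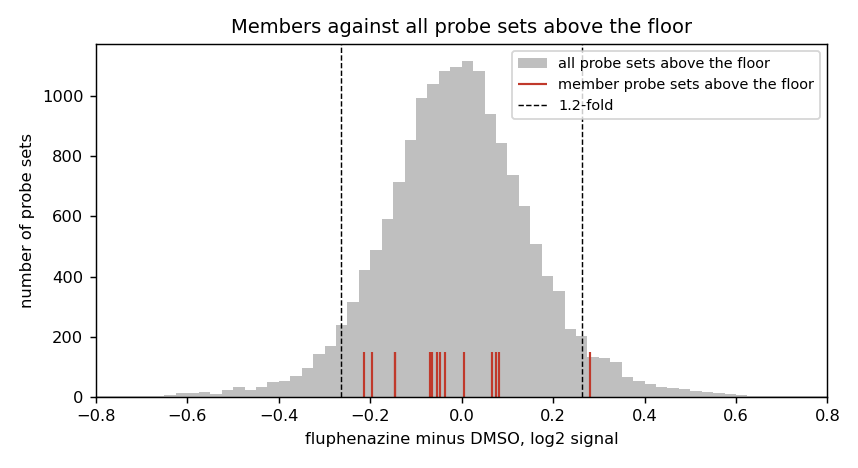
Number of probe sets (vertical axis) by difference in log2 signal, fluphenazine minus DMSO (horizontal axis), for all 16406 probe sets above the floor in grey, with the 14 member probe sets as lines of fixed height and 1.2-fold dashed. The member lines lie between the dashed lines, the lowest at -0.21, except RCAN1 at 0.28, just past the upper one; the axis ends before the few largest differences.

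All 6 markers expected in PC3 cells were above the floor, among them the epithelial genes KRT8, KRT18 and EPCAM. Of these 6, KRT8 (9.70 with DMSO against 9.28) and VIM, the mesenchymal filament vimentin (8.74 against 8.26), were lower with fluphenazine, by more than any member differed. Of 8 measured markers that such cells should lack, 5 were under it, and the exceptions were KLK3, PECAM1 and COL1A1. PECAM1, an endothelial gene, was at -0.27, while KLK3 differed by -0.032 and COL1A1 by less. The medians of all probe sets were 4.74 with DMSO and 4.73 with fluphenazine. All 24 probe sets of the poly-A spike-ins, bacterial transcripts added before labelling, read lower with fluphenazine, with a median drop of 0.22. The part of these marker and spike-in differences in the members' values was not tested.

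The rest of the pathway was described through 7 lists of 140 genes, of which 130 were measured and 76 were above the floor, each gene by the probe set with its highest mean signal. Past 1.2-fold, 6 genes were higher and 4 were lower with fluphenazine, 13.2% of the 76, against 9.53% of all 9196 genes above the floor (4.84% higher and 4.69% lower). The same shares over all genes stand beside the main counts of each list below, each of which holds few genes. They are of genes above the floor, by the probe set with the highest mean signal. No share over all genes was worked out for counts with no floor, another floor or averaged probe sets. The median over the 76 genes was 0.011, against -0.0069 over all genes, but its sign was not stable, at -0.020 with no floor and -0.018 with each gene's probe sets averaged. Averaging also changed which genes were above the floor, leaving 71, so averaged values below are not of the same genes only. None of the 76 reached 1.5-fold, which 0.576% of all genes did.

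Among the factors that calcineurin or calmodulin kinases act on, with the kinases that oppose NFAT, 2 of 18 genes were past 1.2-fold higher and 0 lower, with a median of 0.059. One was NFATC2, an NFAT protein that calcineurin activates, at 7.18 with DMSO and 7.52 with fluphenazine, or 1.26-fold higher. All 4 probe sets of NFATC2 were higher, by 0.34 and 0.41 above the floor and by 0.35 and 0.23 under it. The other was NFAT5, a tonicity-responsive relative that calcineurin does not regulate in the same way, at 9.26 against 9.56, but its other probe sets differed by 0.085 and 0.0076. The repressor HDAC4, a calmodulin kinase substrate, had the largest difference the other way at -0.19.

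Genes known to respond to NFAT were few on this list. Of 13, 8 were measured and 3 above the floor, all 3 higher and 2 of them past 1.2-fold, with a median of 0.27. Over all genes above the floor 4.84% were past 1.2-fold higher, but 3 genes are too few to give a share. The chemokine CXCL8 read 12.97 with DMSO and 13.45 with fluphenazine, the angiogenic factor VEGFA 11.40 against 11.68, and the prostaglandin synthase PTGS2 7.06 against 7.25. The probe sets of VEGFA ranged from -0.041 to 0.27. The other probe set of CXCL8 differed by 0.24, under 1.2-fold, and that of PTGS2, under the floor, by -0.092. All 3 genes are known to respond to other signals as well. With averaged probe sets VEGFA was at 0.14, and 1 of the 4 genes then above the floor was past 1.2-fold higher. With the 5 genes under the floor included, the median was 0.12, and FASLG, a death ligand, was past 1.2-fold lower, at 3.15 against 2.80.

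Other calcineurin subunits, inhibitors and partners had 5 of 10 genes above the floor and 0 past 1.2-fold in either direction. PPP3CC, the gamma form of the catalytic subunit, was at 0.22, with 6.04 on the DMSO array, under the floor, and 6.26 on the fluphenazine array. FKBP1A, the binding protein of tacrolimus, was at -0.11. RCAN3, a relative of RCAN1, was at 0.11 and -0.12 at its 2 probe sets above the floor. The list's median was 0.11. Over the 4 genes above a stricter floor, at the 75th percentile in place of the median, it was 0.045, without PPP3CC. With a gene's probe sets averaged it was -0.023, over 5 genes that were not all the same ones.

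Other calmodulin-regulated kinases and their inhibitors had 0 of 10 genes past 1.2-fold higher and 1 lower, with a median of -0.067. That gene was CAMKK1, the relative of CAMKK2, at 6.80 with DMSO and 6.50 with fluphenazine, and its other probe set, under the floor, differed by 0.072. PHKA1, a phosphorylase kinase subunit, was at 0.17.

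Calmodulin-like and other calmodulin-binding proteins had 0 of 18 genes past 1.2-fold higher and 1 lower, with a median of 0.0099. With averaged probe sets the median was -0.083, over 17 genes that were not all among the 18, and 2 were past 1.2-fold lower. With no floor the median was -0.029, and 5 of 39 genes were past 1.2-fold lower. No share over all genes was worked out beside either count. The lower gene was KCNN4, an intermediate-conductance potassium channel that opens when calcium binds the calmodulin attached to it. It read 7.75 with DMSO and 7.18 with fluphenazine, 1.48-fold lower, at its only probe set. It had the largest difference of the 76 genes. STRN3, a calmodulin-binding scaffold protein, was at 0.24.

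On the AMPK axis, 1 of 9 genes was past 1.2-fold higher and 0 lower, with a median of -0.018. PRKAA1, a catalytic subunit of AMPK, read 8.62 with DMSO and 8.99 with fluphenazine, 1.29-fold higher, while its other 2 probe sets above the floor differed by 0.086 and -0.015. PRKAB1, a regulatory subunit, was at -0.25, and at -0.40 at its other probe set, under the floor. With averaged probe sets PRKAA1 was at 0.20 and PRKAB1 at -0.32, so 0 genes were past 1.2-fold higher and 1 was lower.

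In the list of calcium entry, stores and release, which supplies the calcium that calmodulin senses, 1 of 13 genes was past 1.2-fold higher and 2 were lower, with a median of 0.027. With averaged probe sets 1 of 12 genes was higher and 0 were lower, with a median of -0.016. The cation channel gene TRPC1 read 6.52 with DMSO and 6.87 with fluphenazine. It was higher at all 3 probe sets, by 0.35 and 0.16 above the floor and by 0.39 under it. ITPR1, the receptor through which inositol trisphosphate releases calcium from the endoplasmic reticulum, read 7.76 with DMSO and 7.45 with fluphenazine, and both of its probe sets above the floor differed by -0.31. Under the floor ITPR1 differed by -0.14 and 0.11. SLC8B1, the mitochondrial sodium-calcium exchanger, read 6.58 against 6.27, and its other probe set, under the floor, differed by 0.18.

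**Figure D4:**
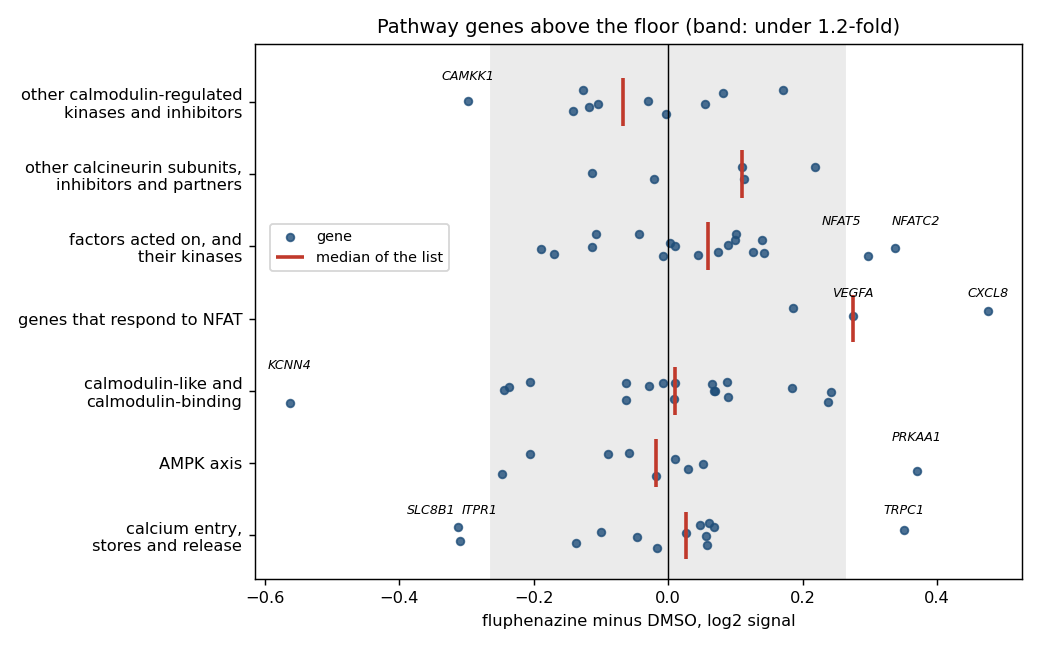
Difference in log2 signal, fluphenazine minus DMSO (horizontal axis), of the 76 pathway genes above the floor in 7 lists (rows); points are genes, red lines list medians, and the grey band spans differences under 1.2-fold. The genes outside the band are named, with KCNN4 lowest at -0.56 and CXCL8 highest at 0.48; vertical scatter within a row carries no value.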

How the data were processed

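The authors' deposited table gave each probe set a log2 signal on either array (range 1.60 to 14.28, from which the scale was judged). RMA, Transcriptome Analysis Console 3.1 and Affymetrix Expression Console 1.4 are named, without their roles, per the submitters' processing notes. Such scaling cannot show a change in total RNA. Genes were named from the platform annotation, with the RefSeq symbol used where RefSeq held the gene identifier (18354 genes, whether or not the symbol changed). Of all probe sets, 37145 named 1 gene and were used for gene values, 8821 were unnamed here and 59 were controls.

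The difference was fluphenazine minus DMSO, with thresholds of 1.2-fold and, as an alternative, 1.5-fold. Probe sets past these are counted by size, not by a test, since there was 1 array per group. The number of arrays limits the precision. Members and lists were chosen with earlier results of these data known. Named were all members and, of the lists, each gene above the floor past 1.2-fold, plus the largest opposite difference of each list. PTGS2, RCAN3 and FASLG, and the genes under other observations, were named after their values were seen. The counting code was run on simulated data with changes far past the threshold and little noise. That run checks the code only and does not cover differences near 1.2-fold. Alternatives varied scaling, floor, threshold, probe set choice and summary. Python 3.11.15, numpy 2.4.6 and pandas 2.3.3 were used. No source used here gives the files' genome build; promoter windows are RefSeq's on GRCh38.p14.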

Additional observations from a re-analysis of the deposited data

How the results depend on the processing

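The median over the members' probe sets ranged from -0.053 to -0.033 under its alternatives, and 3 other scalings moved no member gene by more than 0.018. The count of member probe sets past 1.2-fold higher was 2 with no floor (CAMK2G 214322_at was added), 0 without probe sets whose identifier ends in _s_at or _x_at, which may read several transcripts and include the RCAN1 probe set, and 0 at 1.5-fold. Averaging all probe sets of a gene gave 0.068 for RCAN1, 0.063 for CAMKK2 and -0.083 for CAMK2D, which was at -0.060 with those above the floor. Over all 7 lists, genes past 1.2-fold lower numbered 13 with no floor and 0 with the stricter floor, genes higher numbered 3 with averaged probe sets, and both were 0 at 1.5-fold. Except at 1.5-fold, no share over all probe sets or genes was worked out for these settings. List medians that moved by more than the pooled SD of 0.13 were those of genes responding to NFAT (0.12 with no floor and 0.13 with averaged probe sets, and 0.37 with the stricter floor, a smaller move) and of other calcineurin subunits and partners (-0.023 with averaged probe sets). Smaller moves turned the sign of medians near 0: calmodulin-like and calmodulin-binding proteins to -0.029 with no floor, -0.083 with averaged probe sets and -0.019 as a mean, calcium entry, stores and release to -0.0069, -0.016 and -0.019 likewise, the AMPK axis to 0.031 with the stricter floor, and all 7 lists together to -0.020 with no floor and -0.018 with averaged probe sets. RCAN1, the only member gene past 1.2-fold, kept its sign under the alternatives run for single genes. Leaving out _s_at and _x_at probe sets was not run for single genes. It would leave RCAN1 only 215254_at, under the floor at -0.24. Adding probe sets that name several genes, and the calmodulin probe sets naming several genes, were not run, since none named a member. No paired analysis was possible because each group has 1 array. Signals under the floor limit what the dim probe sets show.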

Other observations

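Some genes, chosen after their values were seen, had several probe sets that differed the same way. CAMK2N1, which encodes an inhibitor of calmodulin kinase II, was lower with fluphenazine at all 3 probe sets, with log2 differences of -0.13, -0.31 and -0.10. EEF2K, the calmodulin-dependent kinase that slows translation elongation, was lower at both of its probe sets, at 7.41 and 6.27 with DMSO against 7.27 and 5.89, the last of which lay under the floor. ATP2B1, a plasma membrane calcium pump that calmodulin activates, was higher at all 3 probe sets, by 0.24, 0.29 and 0.18.

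Transcripts named after the calcineurin genes but annotated apart from them also had probe sets. PPP3CA-DT, a divergent transcript, read 6.71 with DMSO and 6.35 with fluphenazine, a difference of -0.36. PPP3CB-AS1, an antisense transcript, differed by 0.28 and 0.11 at probe sets under the floor.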
